A study of Homo sapiens with 6 samples.

Results

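Long intergenic noncoding RNAs (lincRNAs) are transcripts that lie between protein-coding genes and are not translated into large proteins. The lincRNAs described here are the rows of the deposited count table whose symbol is LINC followed only by digits. They were selected on a mean raw count of 10 or more over the 6 libraries, so that their abundance chose them, and 101 of the 30017 rows of the table met this rule. Of the 533 rows with such a symbol, 246 were at 0 in every library and 186 had counts but lay below the minimum. *LINC01096* lay just inside it with a mean count of 10.17 and *LINC00086* just outside with a mean count of 9.83. The mean is taken over all groups, and a lincRNA that is found in a single group passes only through its level there.

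The cells sequenced were BLaER1-CTCF-mAID, labelled as a CTCF-AID subclone of the BLaER leukemia cell line. These B cell leukemia cells carry an inducible form of the transcription factor C/EBPα that converts them into induced macrophages (iMacs), and their CTCF protein carries an auxin-inducible degron. All 3 groups share this genotype, in 2 replicates each. Untreated cells were taken at 0 h, and cells 96 h after the start of conversion without auxin are the 96 h control. Cells exposed to auxin over the same 96 h are the 96 h CTCF-depleted group. By the study's methods, conversion was started with medium containing estradiol and the cytokines IL-3 and CSF-1, which 0 h cells did not receive. Effects of C/EBPα and of these additions cannot be told apart in comparisons with 0 h. The libraries were made from total RNA depleted of ribosomal RNA, and the comparisons address how gene expression changes during conversion with and without CTCF, a DNA-binding protein that halts cohesin and shapes chromatin loops. A single subclone was used, and auxin-treated cells without the degron are not among these libraries, so effects of auxin and of CTCF loss cannot be told apart.

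LincRNAs are as a class less abundant and more cell type-specific than mRNAs. Some act at the site of their own transcription on neighbouring genes, some act elsewhere as scaffolds or by binding proteins or microRNAs, and for most no function is known. The LINC symbols are provisional names, and several of these loci have since been renamed after a neighbouring gene, a function or a small protein that they encode. In RefSeq, 66 of the 101 rows are listed under the LINC symbol and 35 under a newer name, and 88 are classified as noncoding and 13 as protein-coding.

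The sequence around the start of transcription is shown for 3 lincRNAs whose values are described further on, *LINC00398*, which was found only after conversion, and *LINC00539* and *LINC00114*, which fell upon CTCF depletion. Each window runs from 250 bases before to 50 bases after a start annotated by RefSeq (GRCh38.p14), and the capitals mark the match to a motif. In *LINC00398* (chr13:30802956-30803255, plus strand) this is the CTCF core motif, read on the other strand, in *LINC00539* (chr13:21344810-21345109, minus strand) the PU.1 motif GAGGAAGT, and in *LINC00114* (chr21:38773428-38773727, minus strand) the C/EBP motif TTGCNNAA. PU.1 and C/EBPα are the main myeloid transcription factors.
LINC00398: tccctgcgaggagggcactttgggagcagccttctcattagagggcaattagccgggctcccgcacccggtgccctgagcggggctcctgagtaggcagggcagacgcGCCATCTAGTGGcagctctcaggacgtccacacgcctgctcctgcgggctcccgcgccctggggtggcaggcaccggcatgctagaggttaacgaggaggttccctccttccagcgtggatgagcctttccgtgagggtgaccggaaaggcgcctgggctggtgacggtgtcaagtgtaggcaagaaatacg
LINC00539: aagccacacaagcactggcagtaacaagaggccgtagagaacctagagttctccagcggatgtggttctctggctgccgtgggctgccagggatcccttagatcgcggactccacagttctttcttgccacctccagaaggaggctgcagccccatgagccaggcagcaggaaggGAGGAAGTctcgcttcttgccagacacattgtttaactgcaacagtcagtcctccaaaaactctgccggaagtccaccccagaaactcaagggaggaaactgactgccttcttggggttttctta
LINC00114: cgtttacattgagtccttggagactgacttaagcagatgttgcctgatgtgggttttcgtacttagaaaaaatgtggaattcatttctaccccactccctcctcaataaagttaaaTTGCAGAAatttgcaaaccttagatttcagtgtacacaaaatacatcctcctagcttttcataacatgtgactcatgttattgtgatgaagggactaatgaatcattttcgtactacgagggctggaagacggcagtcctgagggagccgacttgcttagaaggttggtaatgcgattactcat

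RefSeq windows were found for 80 of the 101 lincRNAs, 99 windows in all, and both strands were searched. The CTCF core motif was present in 1 of these windows, that of *LINC00398*, from position -142 to -131 relative to the start, compared to 1.33% of all 35116 windows. TTGCNNAA was present in 8 of the 99 windows and in 10.5% of all windows. GAGGAAGT was present in 3 of the 99 windows, 2 of which are overlapping windows of *LINC00539*, and in 2.59% of all windows. No lincRNA window held more than 1 of these motifs. LincRNAs changed by CTCF depletion have 14 of these windows. Of those, 0 held the CTCF core motif, 1 held the C/EBP motif and 2, both of *LINC00539*, held the PU.1 motif. These windows are not 1 per changed lincRNA, since *LINC00539* has 2 and *LINC00342*, *LINC00174* and *LINC00999* have none. A match in this window is a description of letters and does not show binding. The lincRNAs without a window are *LINC00115*, *LINC01128*, *LINC01160*, *LINC00264*, *LINC00999*, *LINC00937*, *LINC00926*, *LINC00921*, *LINC00663*, *LINC00342*, *LINC00528*, *LINC00896*, *LINC00971*, *LINC00883*, *LINC00969*, *LINC01011*, *LINC00174*, *LINC01004*, *LINC01000*, *LINC00968* and *LINC00977*.

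The libraries hold 9273470 to 12718780 counts. *CTCF* transcripts did not differ detectably between the groups at 96 h (log2 fold change 0.10, SE 0.0511, edgeR adjusted p = 0.119), and the degron acts on the protein. The summed level of 10 B cell markers was 3394 to 3422 CPM (counts scaled to a common library size with edgeR's TMM factors) at 0 h, 432 to 440.4 in control and 442 to 455 in CTCF-depleted libraries, and that of 10 macrophage markers was 39.5 to 41.9, 5145 to 5393 and 4989 to 5023 CPM. Most of the macrophage sum at 96 h is *LYZ*, and the sums hide opposite changes of single markers upon CTCF depletion. *CD22* went from 368 and 401 counts in control to 1057 and 1034, but *RAG1* from 93 and 80 to 26 and 18. *ITGAM* went from 1362 and 1468 to 3125 and 3039, but *MRC1* from 402 and 376 to 151 and 152. In this comparison 1 B cell marker was called higher and 3 lower, and 1 macrophage marker higher and 1 lower. The summed level of 6 T and NK cell markers was 2.58 to 2.85, 38.2 to 38.5 and 32.3 to 34.5 CPM. Of these, *CD3D*, *CD3E*, *CD3G* and *GNLY* had at most 3 counts in every library, whereas *NKG7* went from 24 and 38 counts at 0 h to 395 and 373 in control and *CD2* from 0 in both to 40 and 38, and both were called higher in conversion. All 4 erythroid markers were at 0 in every library. The summed level of 3 megakaryocyte markers was 0.975 to 2.68, 15.2 to 19.5 and 17.9 to 18.8 CPM, with *PF4* at no more than 1 count in any library, *PPBP* at 0 counts in both 0 h libraries and 171 and 211 in control, and *GP9* at 26 and 13 and then 0 in both. The part of these markers' cell types in the results on lincRNAs was not tested. The study's methods name the exons of protein-coding genes as the features counted, although the table has rows for noncoding genes, so that the exons behind a LINC row are not known.

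The lincRNAs are a small and mostly rare part of the RNA. They held 0.137% and 0.141% of the counts in the 0 h libraries, 0.154% in each control library, and 0.146% and 0.150% in the CTCF-depleted libraries. The groups did not overlap, but with 2 libraries each an exact two-sided permutation test cannot give a p below 0.333, the value obtained for each comparison. Without the most abundant lincRNA, *LINC00657*, they did: 0 h replicate 2 (0.105%) then lay above both CTCF-depleted libraries (0.103% and 0.104%). The median mean count was 52.2 per lincRNA, compared to 267 for the 14758 genes tested, and 91 of the 101 lay at or below that median. Only 2 lincRNAs reached a mean count of 1000, a further 30 lay between 100 and 1000, and 69 were below 100.

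*LINC00657*, now *NORAD*, an abundant cytoplasmic RNA that binds Pumilio proteins and protects genome stability, alone held 25.8% to 30.9% of the lincRNA counts of a library. It had 3441 and 4645 counts at 0 h, 5576 and 5296 in control, and 4810 and 4937 in CTCF-depleted libraries, or 352 ± 4.63, 491 ± 1.18 and 450 ± 6.67 CPM (SD, n = 2 each). Both control libraries exceeded all others. Its log2 fold change from 0 h to control was 0.48 (SE 0.045, edgeR adjusted p = 1.89e-14), below the fold change threshold. Per kilobase of annotated exon, it stood at 79.8 CPM, ahead of *LINC00685* (24.7), *LINC00641* (15.1) and *LINC01004* (14.4), and the median over the 92 lincRNAs with an exon length in GENCODE was 1.01 CPM per kilobase. The exons counted are not known, so that this order depends on the annotated lengths, such as 428 bases for *LINC00685*. *LINC00685* lies in the pseudoautosomal region, so that its reads match both copies, and *NORAD* shares 34.9% of its 50-base words with other transcripts. *LINC01000*, the second most abundant by count, had 1181 and 1673 counts at 0 h, 2180 and 2008 in control and 1967 and 2087 in CTCF-depleted libraries, and had a log2 fold change of 0.61 in conversion (SE 0.0536, edgeR adjusted p = 1.9e-15). This lay at the threshold and was called in 7 of 16 alternatives, lost among others in DESeq2 and without 0 h replicate 1, 0 h replicate 2, control replicate 1 or CTCF-depleted replicate 1.

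To characterize the lincRNAs during conversion, the 96 h control was compared with 0 h. The thresholds were those that the study set for DESeq2, here put to edgeR's quasi-likelihood test: an adjusted p below 0.01 with a log2 fold change beyond 0.6 in either direction. DESeq2 was run as an alternative, and all 101 lincRNAs passed the filter on low counts and were tested. Of these, 36 rose and 21 fell, compared to 25.4% and 22.9% of all genes tested. In either direction this is 57 lincRNAs, beside 48.3% of all genes. The libraries of the groups did not overlap for 57 lincRNAs that were higher and 30 that were lower, beside 43.9% and 42.8% of all genes. The median log2 fold change of the lincRNAs was 0.39, compared to 0.02 over all genes. The median SE was 0.253 for the lincRNAs and 0.112 over all genes, so that a change of a given size was harder to detect in a lincRNA. In bulk samples, a higher level per cell and a larger share of cells that express a gene cannot be told apart. The plot of log2 fold change against mean level shows the spread in both comparisons.

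**Figure D1:**
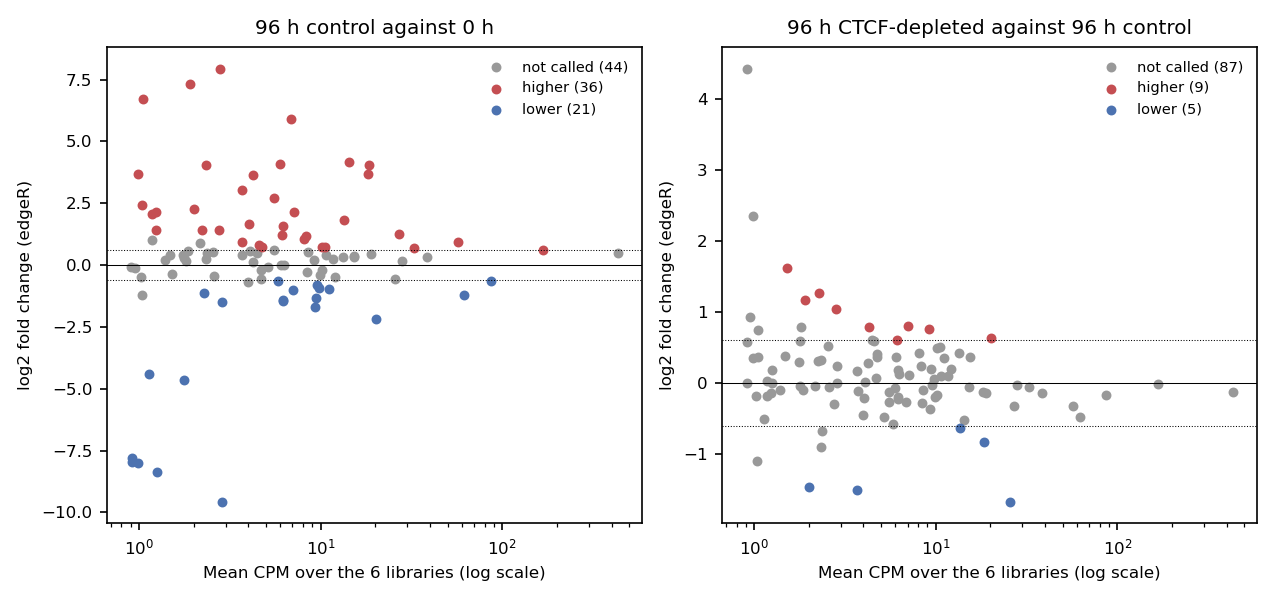
Log2 fold change from edgeR (y axis) against mean CPM over the 6 libraries (x axis, log scale) for the 101 lincRNAs, in 96 h control against 0 h (left) and 96 h CTCF-depleted against 96 h control (right), with dotted lines at the fold change threshold of 0.6. With 36 higher and 21 lower lincRNAs on the left and 9 and 5 on the right, the changes of conversion are more numerous; the points farthest from 0 belong to lincRNAs with 0 counts in a group, whose fitted values are no measure of size.

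Of the lincRNAs that rose, *LINC01138*, *LINC00623* and *LINC00869* lie in the duplicated regions of chromosome 1. The nearest tested protein-coding gene of each belongs to the NBPF family and starts 220, 188 and 132 kb away. *LINC01138* and *LINC00623* are among the 8 with the smallest adjusted p, and *LINC00869* was chosen after its values were seen. *LINC01138* (chr1:148432959-148459920, minus strand) had 15 and 33 counts at 0 h, 381 and 376 in control and 217 and 200 in CTCF-depleted libraries. It rose during conversion from 2.01 ± 0.656 to 34.2 ± 0.845 CPM (SD over n = 2 libraries each), which is a log2 fold change of 4.03 (SE 0.169, edgeR adjusted p = 2.21e-29). *LINC00623* had 14 and 17 counts at 0 h and 271 in each control library, with a log2 fold change of 4.17, and *LINC00869* had 6 and 9 and then 46 and 74 counts, with a log2 fold change of 3.04. In all 3, the 0 h libraries lay far below the others. The neighbours, *NBPF14*, *NBPF26* and *NBPF19* in the same order, rose as well, by 2.55, 2.58 and 2.23 on the log2 scale. Counts in this region are uncertain, since *LINC00623* shares 66.1%, *LINC00869* 58.6% and *LINC01138* 21.2% of its 50-base words with other transcripts, and NBPF genes are near-identical copies.

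*LINC00921* (chr16:3263768-3267567, plus strand) had 21 and 28 counts at 0 h, 325 and 280 in control and 287 and 255 in CTCF-depleted libraries. Its log2 fold change in conversion was 3.68 (SE 0.173, edgeR adjusted p = 5.87e-27), and its start lies 7.13 kb from that of *MEFV*, the gene for the inflammasome protein pyrin, which rose by 5.38 (SE 0.775). *MEFV* was near 0 at 0 h, at 0.0375 CPM, and at 2.25 CPM in control cells, so that its fold change is no measure of size. *LINC00936*, now *ATP2B1-AS1*, starts 0.411 kb from the calcium pump gene *ATP2B1* on the opposite strand. It had 5 and 7 counts at 0 h, 100 and 98 in control, and 94 and 90 in CTCF-depleted libraries, and its log2 fold change was 4.07 (SE 0.315, edgeR adjusted p = 1.64e-17). *ATP2B1* rose by 2.18 on the log2 scale. *LINC00937* had 2 and 4 counts at 0 h and 57 and 41 in control, a log2 fold change of 4.03, and its nearest gene *CLEC6A*, which encodes the myeloid lectin Dectin-2, was at 0 CPM at 0 h and at 6.44 CPM in control cells. For these lincRNAs, all 96 h libraries exceeded both 0 h libraries.

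*LINC01021*, now *PURPL*, a p53-induced RNA, rose from 60 and 76 counts to 231 and 234, a log2 fold change of 1.83 (SE 0.153, edgeR adjusted p = 3.6e-16). *LINC01004*, which overlaps *KMT2E* on the other strand, rose by 0.95 on the log2 scale while *KMT2E* was at 0.14. The remaining pair among the 8 that rose with the smallest adjusted p now carries coding names: *LINC00282* (*TMEM272*) went from 0 and 4 counts to 151 and 97, and *LINC00984* (*INAFM2*) from 156 and 193 to 407 and 396, a log2 fold change of 1.26.

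Among the lincRNAs that fell, *LINC00960* had 378 and 512 counts at 0 h, 91 and 100 in control, and 157 and 134 in CTCF-depleted libraries. Its log2 fold change in conversion was -2.16 (SE 0.123, edgeR adjusted p = 3.67e-23), from 38.7 ± 0.417 to 8.65 ± 0.869 CPM (SD, n = 2 each). *LINC00426*, which lies 66.4 kb from *KATNAL1*, had 167 and 248 counts at 0 h, 58 and 65 in control and 44 and 49 in CTCF-depleted libraries, with a log2 fold change of -1.69. *LINC00641* fell by 0.65 from a high level of 118 ± 7.92 to 75.2 ± 1.60 CPM. In these 3, both 0 h libraries lay above all 96 h libraries. *LINC00341* had 1057 and 1377 counts at 0 h and 503 and 522 in control, a log2 fold change of -1.19. RefSeq lists this symbol under *SYNE3*, a nuclear envelope gene that has a row of its own in the table and a log2 fold change of -0.83, and which exons the *LINC00341* row counts is not given. The plot of the lincRNAs with the smallest adjusted p shows the values of each library.

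**Figure D2:**
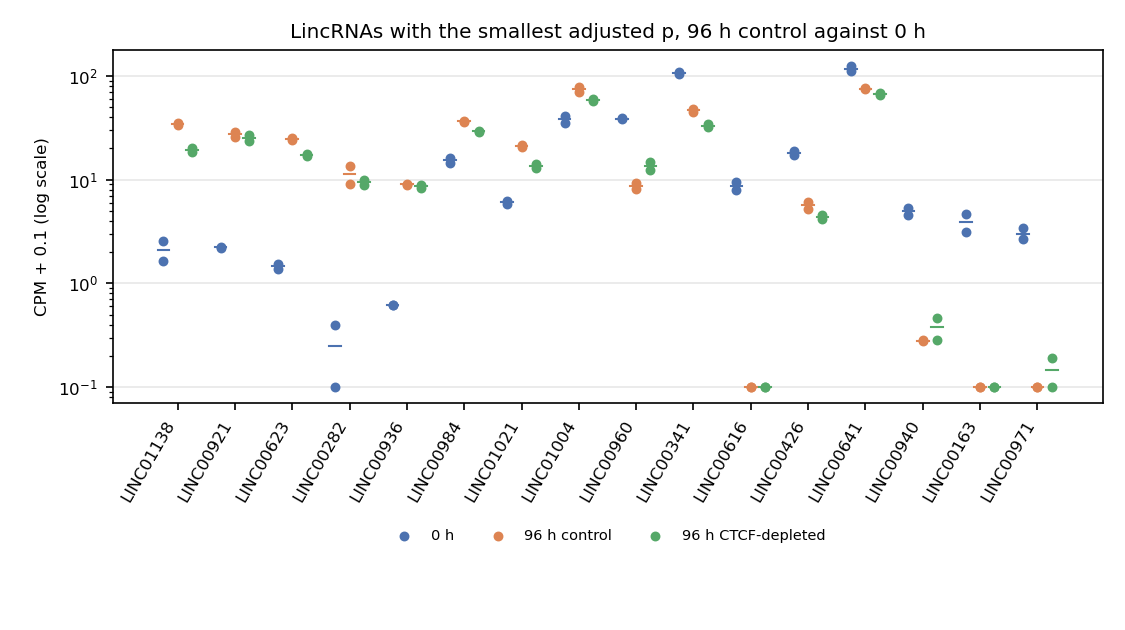
CPM plus 0.1 (y axis, log scale) in each library of the 8 lincRNAs that rose and the 8 that fell with the smallest edgeR adjusted p between 0 h and 96 h control, with points for the 2 libraries of each group and a line at their mean. A point at 0.1 stands for 0 counts. That the 0 h and control libraries do not overlap was a condition of choice. The 0 h points lie apart from the CTCF-depleted points too for each lincRNA shown. LINC01138, for example, was at 2.01 CPM at 0 h and 34.2 CPM in control cells.

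Several lincRNAs were at 0 on one side of the conversion, and their folds are given as bounds against 3 counts per library. *LINC00616* had 91 and 104 counts at 0 h and 0 in all 4 libraries at 96 h, at least 31.7-fold lower in control cells. *LINC00163* had 44 and 40 counts at 0 h and 0 in all 4 libraries at 96 h, at least 13.9-fold lower. *LINC00617*, now *TUNAR*, first described in pluripotent and neural cells, had 24 and 40 counts and then 0 in all 4 libraries, at least 10.1-fold lower. Its nearest protein-coding gene is the oncogene *TCL1A*, which went from 387 to 9.26 CPM. *LINC00971* had 32 and 34 counts at 0 h, 0 in both control and 0 and 1 in the CTCF-depleted libraries, at least 10.8-fold lower in control cells, and its nearest gene *CADM2*, a cell adhesion gene, went from 27.0 to 0.768 CPM. *LINC01013* had 26 and 31 counts at 0 h, 0 in both control and 1 and 4 in the CTCF-depleted libraries. *LINC00940*, with 51 and 60 counts at 0 h and 2 in each control library, had a log2 fold change of -4.66.

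In the opposite direction, *LINC00211*, *LINC00607* and *LINC00398* had 0 counts in both 0 h libraries. *LINC00211*, now *PIRAT1*, a PU.1-dependent RNA of monocytes, had 37 and 24 counts in control and 65 and 58 in CTCF-depleted libraries, at least 10.3-fold and at least 21.3-fold higher than at 0 h. *LINC00607* had 19 and 20 counts in control and 51 and 35 in CTCF-depleted libraries, at least 6.60-fold and at least 14.9-fold higher. *LINC00398*, whose start sequence is shown above, had 14 and 12 counts in control and 23 and 20 in CTCF-depleted libraries, at least 4.39-fold and at least 7.43-fold higher. Its nearest protein-coding gene, 89.7 kb away, is *ALOX5AP*, which encodes the activating protein of leukotriene synthesis and went from 3.09 CPM at 0 h to 410 CPM in control cells. These lincRNAs passed the minimum only through their level at 96 h.

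To place the lincRNAs beside their neighbours, each was paired with the tested protein-coding gene whose start is nearest, which gave 95 pairs in GENCODE release 44. Coding genes that were not tested were passed over, here and wherever a nearest gene is named. *LINC00960*, for example, overlaps the untested *ZNF717* and is paired with *EBLN2*, 2611 kb away. During conversion, lincRNA and neighbour had the same direction in 72 of the 95 pairs (75.8%), compared to 57.8% of 13424 other tested genes and their nearest protein-coding gene. Where both were called, 25 of 29 pairs shared the direction (86.2%), compared to 65.2% of such pairs of other genes. The share was 68.9% in the 61 pairs whose lincRNA overlaps no other protein-coding gene and does not start within 1 kb of one on the opposite strand. Noncoding genes were not considered for this class. The share was 64.2% when the nearest gene on the same strand was taken instead. No share of other genes was computed to set beside the 68.9% or the 64.2%. The exceptions with both called were *LINC01128* beside *SAMD11*, *LINC00959* beside *GLRX3*, *LINC00324* beside *AURKB* and *LINC00607* beside *MREG*. Neighbouring genes within a library are not independent, and no test was run on these shares.

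Some lincRNAs start close to a coding gene on the same strand. *LINC01011* starts 0.02 kb from *NQO2*, and they rose by 3.64 and 1.70 on the log2 scale. *LINC00338* starts 0.106 kb from *SEC14L1*, and they were at -0.21 and 0.87. In other pairs, a lincRNA and a coding gene start within 1 kb of each other on opposite strands. Of these, 10 of 11 had the same direction in conversion, and no such share was computed for other genes. Left out of them were lincRNAs that overlap a coding gene on their own strand, such as *LINC00893*. *LINC01137* (*LITATS1*) rose by 2.15 on the log2 scale and *ZC3H12A*, which encodes the RNase Regnase-1, by 2.30, and the call of *LINC01137* was lost in DESeq2 and without replicate 2 of either group. *LINC01136* (*BTG2-DT*) had a log2 fold change of 1.40 and the antiproliferative gene *BTG2* one of 1.05, but the call of *LINC01136* was kept in only 4 of 15 alternatives and lost in DESeq2, with the replicate block and without any 1 of the 6 libraries. *LINC01126* rose by 1.57 and *ZFP36L2*, an mRNA decay factor, by 2.92. By contrast, *LINC00894* (*EOLA2-DT*) rose by 1.21 while its partner *CXorf40B* was at 0.18, and *LINC00685* was at 0.75, a call lost in DESeq2 and without 0 h or control replicate 2, while *GTPBP6* was at 0.00. The strand setting of the counting is not given in the sources used here, so that reads of such pairs may not be fully separated.

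To test the effect of CTCF depletion, the CTCF-depleted libraries were compared with the control libraries at 96 h. Of the 101 lincRNAs, 9 rose and 5 fell, compared to 5.41% and 7.03% of all genes tested, and the 14 changed lincRNAs stand beside 12.4% of all genes. The libraries did not overlap for 31 lincRNAs that were higher and 29 that were lower, beside 30.1% and 37.8% of all genes. The median log2 fold change was 0.00 for the lincRNAs and -0.03 for all genes. DESeq2, the tool the study used, called 1 lincRNA higher and 3 lower at the same thresholds, compared to 3.83% and 4.94% of all genes. The glmTreat function of edgeR, which tests against the fold change threshold, called 0 higher and 2 lower, compared to 2.02% and 2.33% of all genes. At an unadjusted p below 0.05, edgeR gave 35 lincRNAs in either direction, beside 45.6% of all genes. Without control replicate 1, only 2 of the lincRNAs were called higher, and without control replicate 2 or CTCF-depleted replicate 1 there were 3. *LINC00342* and *LINC00539* kept their call in all 16 alternative settings, and each of the other 12 lost it in at least 2.

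*LINC00342* (chr2:95807052-95826981, minus strand), a lincRNA near the centromere of its chromosome, had 346 and 597 counts at 0 h, 315 and 301 in control and 93 and 96 in CTCF-depleted libraries. Both CTCF-depleted libraries lay below all other libraries. It fell from 27.8 ± 0.0523 to 8.73 ± 0.164 CPM (SD over n = 2 libraries each), which is a log2 fold change of -1.67 (SE 0.127, edgeR adjusted p = 1.07e-16, from 2.56e-36 to 4.26e-08 over the alternatives). Its nearest protein-coding gene, *ANKRD36C*, which starts 165 kb away, fell by 1.78 on the log2 scale, from 73.9 to 21.6 CPM. *ANKRD36C* has near-identical copies, and *LINC00342* shares 18.4% of its 50-base words with other transcripts, so that reads of both can be assigned to other loci.

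*LINC00539* (chr13:21303512-21344859, minus strand) had 41 and 50 counts at 0 h, 64 and 53 in control and 23 and 17 in CTCF-depleted libraries. Its level fell below that of both other groups, from 5.28 ± 0.523 to 1.85 ± 0.399 CPM (SD over n = 2 libraries each), which is a log2 fold change of -1.51 (SE 0.289, edgeR adjusted p = 2.11e-05, from 7.42e-07 to 0.00713 over the alternatives). Its nearest protein-coding gene, *ZDHHC20*, was at -0.10. *LINC00114* (chr21:38739021-38773477, minus strand) had 8 and 10 counts at 0 h, 42 and 43 in control and 12 and 18 in CTCF-depleted libraries. It rose during conversion by 2.28 and fell upon depletion by 1.46 on the log2 scale (SE 0.345, edgeR adjusted p = 4.46e-04), so that the CTCF-depleted libraries lay between the other groups. The call of *LINC00114* was lost in DESeq2, in glmTreat, and without either control replicate or CTCF-depleted replicate 1, with adjusted p-values up to 0.0397. Its nearest gene, *ETS2*, was at 0.15 in both comparisons.

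*LINC01138* and *LINC01021* rose during conversion and were lower without CTCF. *LINC01138* went from 34.2 ± 0.845 to 19.3 ± 1.18 CPM (SD over n = 2 libraries each), which is a log2 fold change of -0.83 (SE 0.113, edgeR adjusted p = 1.7e-08), which was lost only with a log2 fold change threshold of 1 and in glmTreat. *LINC01021* had 231 and 234 counts in control and 140 and 154 in CTCF-depleted libraries, a log2 fold change of -0.63 that lay close to the threshold and was called in 6 of 16 alternatives. In both, the CTCF-depleted libraries lay above 0 h and below control. *LINC00623*, whose nearest gene is also of the NBPF family, had a log2 fold change of -0.52 (SE 0.125), below the fold change threshold.

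Among the lincRNAs that rose upon CTCF depletion, *LINC00654* had 3 and 23 counts at 0 h, 9 and 10 in control and 26 and 32 in CTCF-depleted libraries, with a log2 fold change of 1.63 (SE 0.447, edgeR adjusted p = 0.00252). Both CTCF-depleted libraries exceeded all others, and the 0 h libraries spanned the control. Its nearest gene, *GPCPD1*, a phosphodiesterase of choline metabolism, rose by 0.92, from 221 to 419 CPM. *LINC00211* and *LINC00607*, which were not found at 0 h, rose further by 1.04 (SE 0.275, edgeR adjusted p = 0.00172) and 1.17 (SE 0.335, edgeR adjusted p = 0.00392). Their nearest genes *RMDN2* and *MREG* were at 0.49 and 0.63 and were not called.

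In another group, levels without CTCF lay between control and 0 h or overlapped those of 0 h. *LINC01163* had 81 and 125 counts at 0 h, 56 and 43 in control and 84 and 86 in CTCF-depleted libraries. It fell during conversion by 0.99 and rose upon depletion by 0.81 on the log2 scale (SE 0.207, edgeR adjusted p = 0.00119), and the difference between CTCF-depleted cells and 0 h was -0.18 (SE 0.181). Its nearest gene is the proliferation marker *MKI67*, which fell by 0.71 upon depletion. *LINC01144* had 29 and 32 counts at 0 h, 14 and 13 in control and 37 and 27 in CTCF-depleted libraries. Its log2 fold change upon depletion was 1.27 (SE 0.367, edgeR adjusted p = 0.00421), while *HPDL*, the nearest gene that was tested, fell by 0.97. *LINC01144* overlaps *ZSWIM5* on the other strand, which was not tested. *LINC00960* rose by 0.64 (SE 0.146, edgeR adjusted p = 3.04e-04), with its CTCF-depleted libraries between those of control and 0 h.

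*LINC00174* had 68 and 86 counts at 0 h, 73 and 97 in control and 131 and 151 in CTCF-depleted libraries, with a log2 fold change of 0.76 (SE 0.172, edgeR adjusted p = 2.68e-04). *LINC00999* had 28 and 46, 34 and 44, and 69 and 63 counts, with a log2 fold change of 0.79. *LINC00894* had 23 and 39, 76 and 62, and 109 and 97 counts, with a log2 fold change of 0.61, and was chosen after its values were seen. In these 3 lincRNAs the CTCF-depleted libraries were the highest. *LINC00174*, *LINC00960* and *LINC01144* overlap *TPST1*, *ZNF717* and *ZSWIM5* on the other strand. *ZNF717* was at 0 in every library, *ZSWIM5* had at most 2 counts, and *TPST1* had a log2 fold change of 0.29.

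**Figure D3:**
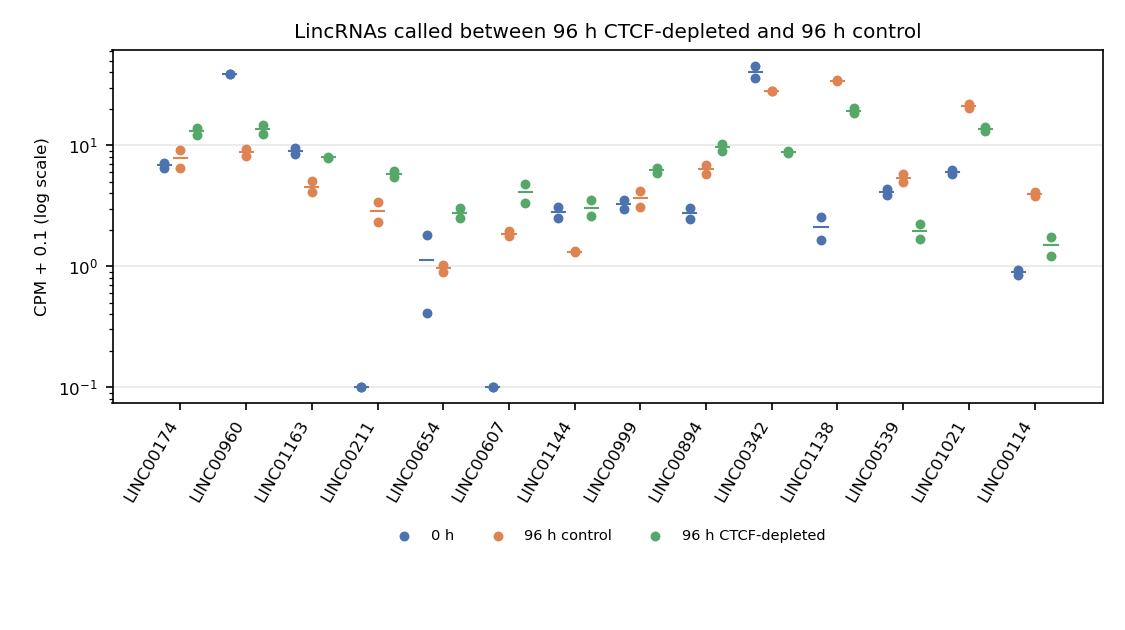
CPM plus 0.1 (y axis, log scale) in each library of the 9 lincRNAs that were higher (left) and the 5 that were lower (right) in 96 h CTCF-depleted than in 96 h control libraries, with points for the 2 libraries of each group and a line at their mean. A point at 0.1 stands for 0 counts. The CTCF-depleted points do not overlap the control points for any of the 14, and LINC00342 shows the clearest separation, at 27.8 and 8.73 CPM.

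Without CTCF, the direction of lincRNA and nearest neighbour was the same in 47 of 92 pairs (51.1%) in the comparison of the groups at 96 h, compared to 55.3% of other genes. The other 3 pairs have no direction, since *LINC00616*, *LINC00163* and *LINC00617* were at 0 in all libraries at 96 h. Of the 13 lincRNAs of these pairs that were called, 10 had the direction of their neighbour (76.9%), compared to 61.1% of other called genes. Some of these neighbours are far away, as for *LINC01021* (4060 kb) and *LINC00960* (2611 kb). Within 100 kb, 2 of 4 called lincRNAs had the direction of their neighbour (50%), compared to 62.5% of other called genes. Of all pairs within 100 kb with a direction, it was the same in 30 of 62 (48.4%), compared to 55.8% of other genes. Over all distances, both genes were called in 4 pairs, of which 2 shared the direction, compared to 74.7% of such pairs of other genes. *LINC00342* and *LINC00654* changed in the direction of *ANKRD36C* and *GPCPD1*, and *LINC01163* and *LINC01144* changed against *MKI67* and *HPDL*. *HPDL* is the nearest tested gene of *LINC01144*, which overlaps the untested *ZSWIM5*.

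Compared with 0 h, the CTCF-depleted libraries had 38 lincRNAs that were higher and 22 that were lower, beside 27.2% and 25.2% of all genes. In either direction this is 60 lincRNAs, beside 52.5% of all genes, and the libraries did not overlap for 64 higher and 28 lower lincRNAs, beside 44.6% and 43.1%. The median log2 fold change was 0.55 for the lincRNAs and 0.02 for all genes. This comparison uses the same 0 h libraries as the comparison of control cells and is not independent of it. The smallest adjusted p belonged to *LINC00921*, *LINC00623* and *LINC01138* among the higher lincRNAs, with log2 fold changes of 3.55, 3.66 and 3.20. Among the lower lincRNAs it belonged to *LINC00341*, *LINC00342* and *LINC00960*, with log2 fold changes of -1.68, -2.22 and -1.52. *LINC00342* was at -0.54 between 0 h and control cells, below the fold change threshold.

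Of the 13 lincRNAs that RefSeq now lists as protein-coding, 4 rose and 3 fell during conversion, beside 25.4% and 22.9% of all genes. Upon CTCF depletion 0 were called by edgeR, DESeq2 or glmTreat, beside 12.4% of all genes with edgeR, and 3 had an unadjusted edgeR p below 0.05. Those that rose were *LINC00282* (*TMEM272*), *LINC00672* (*LASP1NB*), *LINC00984* (*INAFM2*) and *LINC00959* (*C10orf143*), the last of which kept its call in only 4 of 16 alternatives. *LINC00672* had 11 and 18 counts at 0 h and 92 and 94 in control libraries, a log2 fold change of 2.73, and its nearest gene *LASP1*, which encodes an actin-binding protein, rose by 1.86. Those that fell were *LINC00617* and *LINC00341*, described above, and *LINC00094* (*BRD3OS*), at -0.96. The RNAs that encode small membrane proteins of mitochondria or the endoplasmic reticulum, *LINC00116* (*MTLN*), *LINC00493* (*SMIM26*) and *LINC00998* (*SMIM30*), had log2 fold changes of -0.57, -0.47 and 0.53 in conversion and 0.37, 0.19 and -0.10 upon CTCF depletion, and none was called in either. *LINC01125* (*C2orf92*), *LINC00176* (*C20orf204*) and *LINC00950*, listed under *TMEM8B*, were at 0.88, -0.46 and 0.27 in conversion and between -0.05 and -0.04 upon depletion.

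Of 20 LINC RNAs listed from knowledge of blood cells and of micropeptides, 5 were among the lincRNAs described, 11 had a row below the minimum and 4 had no row under that symbol. Besides those named above, this list holds *LINC00926*, an RNA linked to B cells, which had 14 and 37 counts at 0 h, 47 and 46 in control and 46 and 56 in CTCF-depleted libraries. All 96 h libraries exceeded both 0 h libraries, and the log2 fold change in conversion was 0.93 (SE 0.295, edgeR adjusted p = 0.00397), while the 10 B cell markers fell. The value ranged from 0.59 to 1.49 over the alternatives, and the call was kept in 9 of 16 and lost among others in DESeq2 and without 0 h replicate 1 or either control replicate. *LINC00877*, with a mean count of 9.17, lay close to the minimum, and *LINC01094* had a mean count of 7.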

How the data were processed

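Total RNA was measured in 6 libraries, 2 per group. Within the nf-core/rnaseq pipeline, the authors mapped reads with STAR 2.6.1d (hg38), counted them over exons (protein-coding ones, by their methods) with featureCounts 2.0.6 and deposited raw counts per gene symbol, without normalization. The annotation release, the strand setting and the treatment of reads that map to several places are not given in the sources used here. No molecular identifiers were used, so that amplified copies of a fragment count separately.

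Differential expression was computed with edgeR 4.0.16 under R 4.3.3 (filterByExpr, TMM, quasi-likelihood test with group as the only term over 6 libraries, Benjamini-Hochberg adjustment over 14758 genes). Each standard error is the log2 fold change divided by the square root of F, CPM carry no prior count, and the fit was tested on simulated data. With 2 libraries per group, the spread behind each p-value is shared across genes (common coefficient of variation 3.96%). Replicates of a group differed by more than sampling noise (chi-square per degree of freedom 1.71 to 2.69). The labels do not say that replicate numbers pair the samples. Correlations of the replicates' deviations between groups were -0.0194, 0.0109 and -0.0294, which cannot show whether the samples were handled in pairs. Alternatives were DESeq2 1.42.0, other scalings, filters and thresholds, glmTreat, fewer libraries and a replicate block.

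Symbols were matched to RefSeq (GRCh38.p14) by symbol or synonym, and positions and exon lengths came from RefSeq and GENCODE release 44, on the primary chromosomes of hg38. *LINC00341* and *LINC00950* share their current name with another row, and their position and length were not used. Python 3.11.15, pandas 2.3.3 and matplotlib 3.10.9 served for summaries and plots. The lincRNAs, lists and tests were chosen with earlier results of these data known. LincRNAs named are the 8 in each direction with the smallest adjusted p in conversion and upon CTCF depletion and the 3 against 0 h whose libraries did not overlap, the 6 most abundant, those now listed as coding, a list of 20 and those at the minimum. Any other lincRNA named, including those with 0 counts in a group and those beside a named neighbour, was chosen after its values were seen.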

Additional observations from a re-analysis of the deposited data

Results flagged for a closer look

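The log2 fold change of *LINC01144* upon conversion differed with and without CTCF. Relative to 29 and 32 counts at 0 h, both control libraries lay lower (14 and 13 counts, log2 fold change -1.12), whereas the CTCF-depleted libraries (37 and 27 counts) were not called, with a log2 fold change of 0.15 that ranged from -0.095 to 0.39 with each library left out in turn. The difference itself, which is the comparison of the groups at 96 h, had a log2 fold change of 1.27 (SE 0.367, edgeR adjusted p = 0.00421, from 0.00143 to 0.138 over the alternatives) and was not called by DESeq2, by glmTreat or without either control replicate or CTCF-depleted replicate 1. The groups hold 2 libraries each, which is too few for a test of outlying samples.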

How the results depend on the processing

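The 36 and 21 lincRNAs called in conversion and the 38 and 22 called between CTCF-depleted cells and 0 h stayed within 1.5 times their number in all alternatives but a minimum of 10 counts in every library, which leaves out lincRNAs near 0 and gave 21 higher in conversion and 14 lower between CTCF-depleted cells and 0 h. In every alternative that tested them, 37 of 57 lincRNAs kept their call in conversion and 39 of 60 between CTCF-depleted cells and 0 h. Upper-quartile scaling moved the median log2 fold change of all genes in conversion from 0.02 to -0.10, with 29 lincRNAs higher and 24 lower. The 9 higher and 5 lower lincRNAs upon CTCF depletion changed most. They became 1 and 3 with DESeq2, and 0 and 2 with glmTreat. When only an adjusted p below 0.05 was asked for, there were 17 and 13, beside 2375 and 3330 of all 14758 genes. At a log2 threshold of 1, there were 4 and 3, beside 409 and 436 of all genes. With each library left out in turn, between 2 and 9 were higher and between 3 and 5 lower. Without control replicate 1, the calls of *LINC00174*, *LINC00607*, *LINC00654*, *LINC00894*, *LINC00960*, *LINC00999*, *LINC01144* and *LINC00114* were lost. Without control replicate 2, those of *LINC00211*, *LINC00607*, *LINC00654*, *LINC00894*, *LINC00999*, *LINC01144*, *LINC01163*, *LINC00114* and *LINC01021* were lost. CTCF-depleted replicate 1 decided *LINC00211*, *LINC00607*, *LINC00894*, *LINC00960*, *LINC00999*, *LINC01144*, *LINC00114* and *LINC01021*, replicate 2 *LINC00654*, *LINC00894* and *LINC00999*, and either 0 h replicate *LINC01021*. A lone library is assumed to vary like those of the other groups. The replicate block gave 34 higher and 21 lower lincRNAs in conversion and the main counts, 9 and 5 or 38 and 22, in the other comparisons.

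The mean share of lincRNAs in the counts of 0 h, control and CTCF-depleted libraries was 0.102%, 0.107% and 0.103% without *LINC00657*, 0.133% and 0.160% at 0 h and in control relative to the TMM-scaled library size, and 0.143%, 0.157% and 0.152% over every LINC row. The share of pairs with the same direction in conversion was 64.2% with the nearest gene on the same strand.

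Reversals were looked for only among the lincRNAs named by the rules given above, not among all 101. Those found concerned only lincRNAs that were not called in that comparison, mostly with 1 library left out. In conversion, *LINC00174* ranged from -0.052 to 0.39, *LINC00654* from -1.005 to 1.40, *LINC00999* from -0.091 to 0.31 and *LINC01096* from -0.88 to 0.40. Upon CTCF depletion, *LINC00176* ranged from -0.386 to 0.27, *LINC00282* from -0.48 to 0.087, *LINC00950* from -0.17 to 0.17, *LINC00998* from -0.25 to 0.11 and *LINC01125* from -0.14 to 0.12. *LINC01000* ranged from -0.025 to 0.062, and was at 0.0196 with upper-quartile scaling, 0.0167 without a filter and 0.0174 in the fit of the 4 libraries compared. Between CTCF-depleted cells and 0 h, *LINC00116* ranged from -0.49 to 0.10 and *LINC01144* from -0.095 to 0.39.

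At a median of 52.2 counts per lincRNA and 2 libraries per group, small differences were not detectable, and the cause of the lost calls was not tested.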
